A study of Mus musculus with 38 samples.

Results

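Lung metastases of the MMTV-PyMT mouse breast cancer model were compared with adenomas, the early primary tumor of the same model, across all genes on the array. The samples were chosen by their titles alone, all 5 titled Metastases against all 5 titled Adenoma, which makes 10 of the 38 samples of the series. MMTV-PyMT mice carry Polyoma Middle T-Antigen, an oncogene that switches on growth signaling, under the mouse mammary tumor virus promoter, whose activity is not limited to mammary epithelium. Every sample, in both groups, carried this oncogene and an actin-GFP transgene, in the FVB/n strain. Hyperplasias from females that were 3 weeks old and carried both transgenes were grafted into the cleared mammary fat pads of hosts without GFP. Adenoma samples came from 5-week outgrowths. Metastases came from lungs taken 8 to 10 weeks after the surgical removal of 18-week primary tumors, when the mice showed respiratory distress. GFP-positive cells were collected by FACS from digested tissue. GFP under the actin promoter marks any cell derived from the graft, not tumor epithelium in particular, and the FACS gate was meant to leave out the host cells of the lung. Carcinomas (18-week outgrowths, 6 arrays) and disseminated cells (GFP-positive cells from the lungs of mice with 18-week tumors, 6 arrays) were on the same array design and are used here only to place a difference.

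A metastasis is a colony founded by a cell that left the primary tumor, survived in the circulation and grew in another organ. Growth there draws on the cell cycle and its histone and ribosome supply, on energy metabolism, and on signals between tumor cells and the host tissue. The lung adds its own cells to this setting, above all alveolar macrophages, which clear surfactant and particles from the airspaces, and monocyte-derived macrophages that gather at growing colonies. Chromatin-modifying enzymes, Notch genes and stem-cell genes were of particular interest to the study.

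Each value below is a log2 ratio of the Cy5 signal of the sample to the Cy3 signal of a pooled mouse reference RNA on the same two-colour array, after background correction and normalization. A change is the mean log2 ratio of Metastases minus that of Adenoma, so that 1 stands for a doubling, and its SE comes from a limma fit to all 22 progression arrays. A gene was called where its Benjamini-Hochberg adjusted p over all 28784 gene names tested was below 0.05 and the change was at least 2-fold. A value per group is given as mean ± SD over the 5 arrays. Values of different genes come from different probes and are not compared with each other as levels. Lungs of several mice were pooled to obtain enough disseminated cells. For the other stages the sources used here do not say that every sample came from its own mouse. The p-values therefore measure the spread between these samples.

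The arrays differed in technical respects that run with the groups. All Metastases arrays lay on slides 4 to 6 with Carcinoma and were scanned on 1 day, and all Adenoma arrays lay on slides 1 to 3 with disseminated cells and were scanned on another day, so slide, scan day and stage cannot be told apart in the direct comparison. The same holds for Carcinoma against Adenoma and for Metastases against disseminated cells. The median Cy5 signal above background was 419 to 522 units on the Metastases arrays and 68.7 to 237 on the Adenoma arrays, and the share of probes well above background was 70.2% to 78.9% against 48.4% to 75.5%. Correlations of the log2 ratios over all genes were 0.838 to 0.959 between Adenoma arrays, 0.713 to 0.941 between Metastases arrays and 0.433 to 0.825 between the groups. Metastases replicate 4 stood farthest from its group, with a median correlation of 0.776 with the others.

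The label of mammary tumor cells was checked against markers. The mean log2 ratio over 22 luminal epithelial genes was 2.18, 2.52, 2.14, 2.10 and 2.05 on the Adenoma arrays and 2.38, 2.94, 2.15, 0.39 and 2.50 on the Metastases arrays. Metastases replicate 4 was low and the other 4 lay at or above the lower Adenoma values. For macrophage markers the mean over 24 genes was 0.32, 0.088, -0.058, 0.35 and 0.32 on the Adenoma arrays and 2.92, 0.42, 3.59, 4.35 and 0.92 on the Metastases arrays. Metastases replicates 1, 3 and 4 were high in macrophage transcripts, while replicates 2 and 5 were closer to Adenoma. Carcinoma replicate 6 was the other such tumor array, at 4.14 against at most 0.43 on the other Carcinoma arrays. In RNA from sorted populations a larger share of cells of a type and more RNA per cell cannot be told apart.

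**Figure D1:**
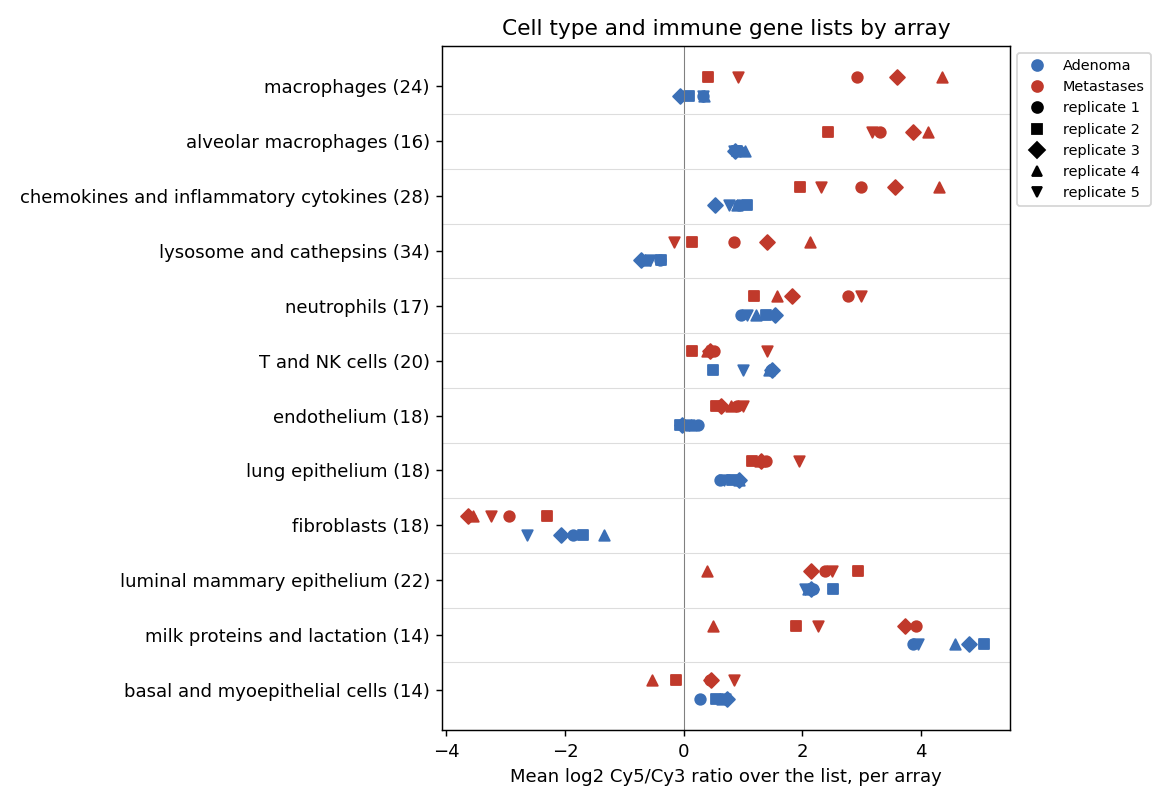
Mean log2 Cy5/Cy3 ratio over the members of 12 gene lists (number of genes in brackets) on each Adenoma array (blue) and each Metastases array (red), with 1 marker shape per replicate number. Macrophage, chemokine and lysosome means are highest on Metastases replicates 1, 3 and 4. Macrophage, alveolar macrophage, chemokine, lysosome, endothelial and lung epithelial means are above every Adenoma array on all 5 Metastases arrays. The luminal mean is low on Metastases replicate 4 alone.

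Metastases and adenomas differed widely. Of the 28784 genes, 4195 were called (14.6%), of which 1749 were higher in Metastases (6.08%) and 2446 were lower (8.5%). At the 4-fold level 968 were called (3.36%), 452 higher and 516 lower. The 5 Adenoma and 5 Metastases values did not overlap in 3434 of the 4195 called genes, against 21.4% of all genes. The median change over all genes was 0.015. From the authors' deposited log2 ratios the same fit called 4582 genes, 2456 higher and 2126 lower, so that the balance of rises and falls differed between these ways of processing. For comparison, in fits that share these arrays, 3.29% of genes were called for Carcinoma against Adenoma, 10.1% between Metastases and Carcinoma, 7.11% between Metastases and disseminated cells, and 10.5% between disseminated cells and Adenoma. By direction, in the same order and with the stage named first as the higher or lower one, these were 1.15% higher and 2.14% lower, 4.73% and 5.35%, 3.43% and 3.68%, and 4.64% and 5.84%.

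The largest rises were led by genes of myeloid cells. Genes were ranked among those called, measured well above background on all 10 arrays and without overlap between the groups. The 8 largest rises were Chil3, Rnase2a, Ctss, Lyz2, Clec4e, Ccl6, Procr and Srgn. Lack of overlap was set by the rule for these genes and is no separate result. Chil3, a chitinase-like lectin secreted by alveolar macrophages, had log2 ratios of -1.01, -1.05, -0.26, -0.47 and -1.61 in Adenoma and 6.29, 2.80, 9.19, 9.76 and 5.77 in Metastases. Replicate 2 was the lowest of the Metastases arrays. Lyz2, the lysozyme of macrophages and neutrophils, read -0.39, -0.41, -1.17, 0.35 and 0.0052 in Adenoma and 5.61, 1.34, 6.95, 7.59 and 4.15 in Metastases. Replicates 2 and 5 were again the lowest, for a change of 5.45 (SE 1.28, adjusted p 0.00357), with 1.78 on another probe. Clec4e, a C-type lectin receptor of myeloid cells, ranged from -2.12 to -1.47 in Adenoma and from -0.45 to 7.04 in Metastases, a change of 5.44 (SE 1.29, adjusted p 0.00387). Srgn, the core protein of the granule proteoglycan of blood cells, changed by 5.08 (SE 1.26, adjusted p 0.00518). Ctss, the cathepsin that trims the invariant chain in antigen-presenting cells, was called with all arrays (adjusted p 0.0202) and lost the call without Metastases replicate 1 (0.0509), 3 (0.0580) or 4 (0.0594). Its changes in those fits were 4.99, 4.75 and 4.72.

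For Procr and Ccl6, Metastases replicates 1, 3 and 4 were again the highest. Procr, the endothelial protein C receptor, which also marks a population of mammary stem cells, read -1.04, -0.99, -1.95, -0.17 and -1.01 in Adenoma and 4.82, 2.77, 5.23, 6.04 and 2.23 in Metastases. The lowest Metastases value was more than 2 log2 units above the highest Adenoma value. The change was 5.25 (SE 0.90, adjusted p 2.99e-04), or 38.1-fold, and the means in Carcinoma and disseminated cells were 0.69 and 1.94. Against Carcinoma the change was 3.53 (adjusted p 0.00661), and against disseminated cells it was 2.28, which did not pass the test (adjusted p 0.0867). Ccl6, a CC chemokine made by myeloid cells, read 1.69, 0.50, 2.31, 2.92 and 2.20 in Adenoma and 7.19, 5.65, 7.84, 8.86 and 6.53 in Metastases. The change was 5.29 (SE 0.75, adjusted p 6.4e-05), and Carcinoma lay between the groups with a mean of 4.82.

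The 8 largest falls by the same rule were Pigt, H2ac15, H2ac13, Smoc2, Scrg1, Xcl1, Gldc and Taf7. Smoc2, a secreted calcium-binding matrix protein that modulates growth factor signals, read 1.91, 2.38, 3.47, 2.54 and 1.49 in Adenoma and -1.91, -2.0, -2.0, -2.04 and -1.50 in Metastases. The Metastases values were tight around their mean. Smoc2 fell by 19.0-fold (log2 change -4.25, SE 0.33, adjusted p 9.88e-07) on the probe used, while a second probe gave -0.41. The Carcinoma mean was -0.53, so most of the fall on the probe used also lay between Adenoma and Carcinoma. Those groups too differ in slide and scan day. Xcl1, the lymphotactin chemokine that attracts cross-presenting dendritic cells, read 5.09, 5.04, 6.23, 6.4 and 5.09 in Adenoma and 1.59, 1.40, 1.44, 0.73 and 2.45 in Metastases. The change of -4.05 (SE 0.47, adjusted p 1.42e-05) likewise lay mostly between Adenoma and Carcinoma, with a Carcinoma mean of 2.02. Scrg1, a small secreted protein first known from scrapie-infected brain, behaved differently. It read 4.82, 6.52, 5.92, 5.68 and 4.93 in Adenoma and 1.27, 2.99, 1.03, 0.42 and 1.94 in Metastases, and its Carcinoma mean of 5.41 was within the Adenoma range. Scrg1 changed by -4.05 (SE 0.57, adjusted p 6.36e-05) against Adenoma and by -3.89 (adjusted p 1.71e-04) against Carcinoma, a comparison that lies within the same slides and scan day. Gldc, the glycine decarboxylase of the mitochondrial glycine cleavage system, changed by -3.88 (SE 0.63, adjusted p 2.05e-04). Taf7, a subunit of the general transcription factor TFIID, changed by -3.86 on the probe used (SE 0.43, adjusted p 8.96e-06), while other Taf7 probes gave changes of -0.73 and 0.86. Pigt, a subunit of the GPI transamidase, also depended on the probe, with a change of -5.52 on the probe used and -0.37 on another.

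**Figure D2:**
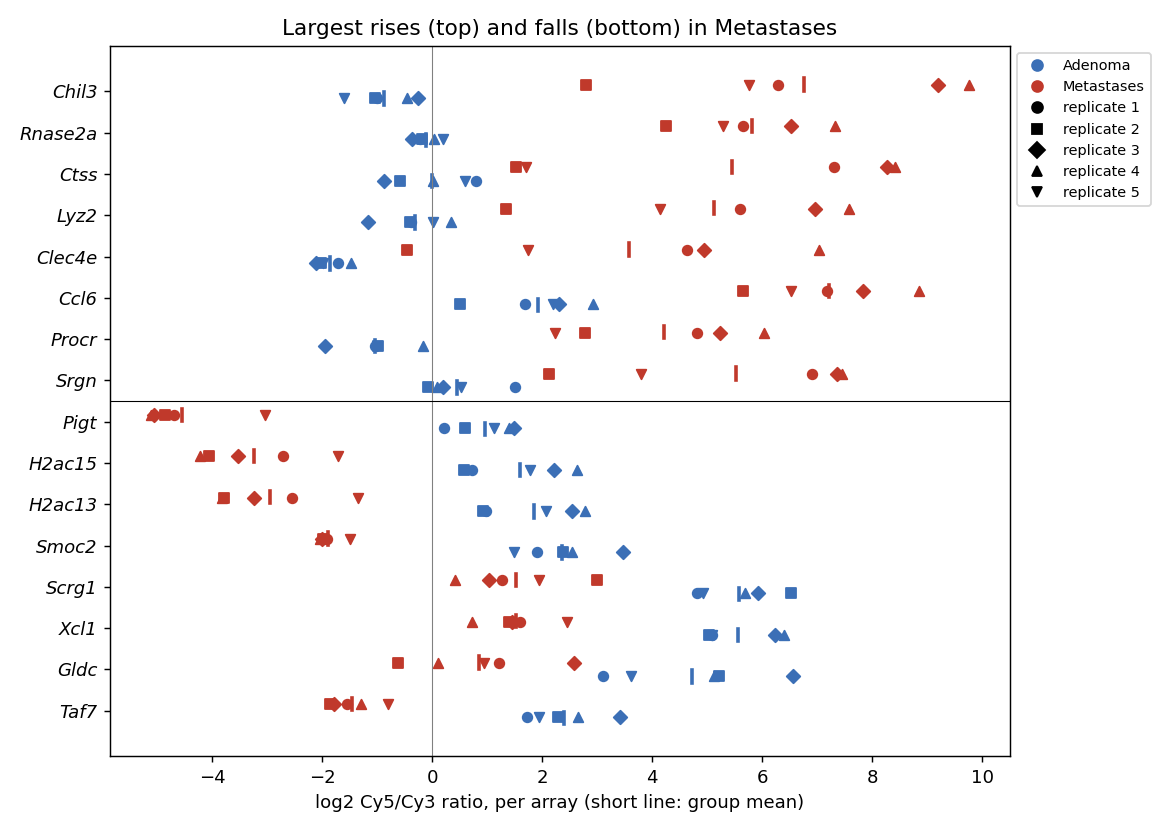
Log2 Cy5/Cy3 ratio on each Adenoma array (blue) and Metastases array (red) for the 8 largest rises (above the line) and the 8 largest falls (below it), with short lines at group means. The genes were taken among called genes measured well above background on all 10 arrays and without overlap between the groups. Metastases replicates 2 and 5 are the lowest for Ctss, at 1.53 and 1.71, and the 5 Metastases values of Smoc2 lie between -2.04 and -1.50.

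Macrophage markers rose as a list. Of 24 measured, 13 were called higher and 0 lower, with a median change of 2.21 against 0.015 over all genes. Adgre1, the F4/80 antigen that defines tissue macrophages, read -1.79, -1.65, -2.13, -1.23 and -1.62 in Adenoma and 2.04, -1.37, 3.31, 4.76 and -1.08 in Metastases. Replicates 1, 3 and 4 were far above Adenoma, and replicates 2 and 5 lay within or just above its range. Csf1r, the receptor for macrophage colony stimulating factor, read -0.53, -0.49, -1.20, -0.35 and -0.30 in Adenoma and 2.92, -0.27, 3.29, 4.47 and 0.46 in Metastases, with the same 3 arrays high. Mrc1, the mannose receptor, changed by 3.58 (SE 0.94, adjusted p 0.00783) and Fcgr3, a low-affinity Fc receptor for IgG, by 3.73 (SE 0.97, adjusted p 0.00738). Metastases replicates 1, 3 and 4 were left out in an alternative chosen after seeing the data, for their high macrophage means. With Metastases replicates 2 and 5 remaining, 0 of the 24 were called and the median was 0.38. The arrays were picked by these same markers, and the covariate below is their mean, so neither alternative tests the markers. Here and below, a call lost without the 3 arrays can also come from having fewer arrays. Of the 127 called genes given with values here, 49 lost the call without these 3 arrays, 41 lost it with the macrophage list mean as a covariate and 36 lost it both ways, and 0 turned direction. Leaving out Adenoma replicate 3 or Metastases replicate 1, 3 or 4 alone left 7 macrophage markers called. Another Adgre1 probe gave 0.29. On the probe used Adgre1 was called with all arrays (change 3.22, adjusted p 0.0318) but not without Adenoma replicate 1, 2, 3 or 5. There the adjusted p was 0.0509, 0.0515, 0.0638 and 0.0504. It was not called without Metastases replicate 1, 3 or 4 either, with adjusted p 0.0632, 0.0851 and 0.102. Csf1r (change 2.75, adjusted p 0.0285) lost its call without Adenoma replicate 3 (0.0632) and without Metastases replicate 1 (0.0640), 3 (0.0711) or 4 (0.0895). Other Csf1r probes gave 1.53 and -0.17.

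Alveolar macrophage genes rose on all 5 Metastases arrays. Their mean over 16 genes was 0.93, 0.89, 0.87, 1.03 and 0.85 in Adenoma and 3.31, 2.44, 3.86, 4.11 and 3.17 in Metastases, so that the groups did not overlap. 10 were called higher and 0 lower, with a median change of 1.78, and 8 were called higher without Metastases replicates 1, 3 and 4. Chil3 is a member of this list. Rnase2a, an eosinophil-associated ribonuclease also made by alveolar macrophages, read -0.23, -0.18, -0.38, 0.029 and 0.19 in Adenoma and 5.65, 4.25, 6.53, 7.33 and 5.28 in Metastases. Its near-identical relative Ear1 changed by 6.46 (SE 0.67, adjusted p 4.58e-06), and since probes for these paralogs may share signal they are uncertain as separate genes. Marco, a scavenger receptor for particles, ranged from 0.43 to 1.07 in Adenoma and from 1.89 to 3.35 in Metastases. Marco rose by 1.91 (SE 0.38, adjusted p 0.00104). Siglecf, a lectin that defines alveolar macrophages and eosinophils, was not well above background on any Adenoma array and was so on 3 of the 5 Metastases arrays. It was not called (change 0.34, adjusted p 0.357). Disseminated cells, also sorted from lung, had a mean of 7.80 for Chil3 and 4.36 for Marco, and the Chil3 difference between Metastases and these cells did not pass the test (change -1.04, adjusted p 0.567). Carcinoma means were -0.038 and 0.95.

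Chemokines and inflammatory cytokines were higher in Metastases. 16 of 28 were called higher and 0 lower, with a median change of 2.19. Cxcl1 and Cxcl2, ligands of the neutrophil receptor CXCR2, rose on every array. Cxcl1 read 2.12, 2.30, 0.68, 0.74 and 1.78 in Adenoma and 4.80, 5.96, 5.05, 8.53 and 4.35 in Metastases, with its highest value on Metastases replicate 4, and changed by 4.21 (SE 0.82, adjusted p 8.28e-04). Cxcl2 read 1.64, 1.96, 0.11, 0.40 and 1.23 in Adenoma and 5.79, 5.47, 6.08, 6.49 and 4.23 in Metastases and changed by 4.55 (SE 0.73, adjusted p 1.83e-04). Neither gene overlapped between the groups. The interleukin Il6 read 1.66, 0.18, -1.12, 0.33 and -0.20 in Adenoma and 4.57, 3.23, 5.27, 5.73 and 3.17 in Metastases. It rose in all 5 Metastases relative to all 5 Adenoma samples, by 18.7-fold (log2 change 4.22, SE 0.82, adjusted p 8.88e-04), with means of 1.89 in Carcinoma and 5.03 in disseminated cells. Without Metastases replicates 1, 3 and 4 the Il6 change was 3.03 and was not called (adjusted p 0.0866). Ccl9, a CC chemokine of macrophages and osteoclasts, changed by 4.39 (SE 1.04, adjusted p 0.00391) and was highest on replicates 3 and 4, at 5.33 and 6.88. Macrophage marker means were high on Metastases replicates 1, 3 and 4, as given above, and without those arrays 4 of the 28 chemokine genes were called higher with a median of 1.42. The part of macrophage RNA in the chemokine rise was not tested.

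Lysosomal genes and matrix proteases were highest on the same arrays. Of 34 lysosome and cathepsin genes, 16 were called higher and 1 lower (Lipa), with a median change of 1.33. The list mean was 0.85, 0.14, 1.41, 2.14 and -0.17 on the Metastases arrays and -0.41, -0.38, -0.72, -0.65 and -0.57 on the Adenoma arrays, and without Metastases replicates 1, 3 and 4 the count was 2 higher and 2 lower. Lamp2, a membrane protein of lysosomes, rose on every Metastases array, from -1.05, -1.15, -1.29, -1.18 and -0.68 in Adenoma to 1.0, 0.84, 1.21, 2.51 and 0.35 in Metastases. Its change was 2.25 (SE 0.34, adjusted p 1.04e-04). Ctsk, the collagen-degrading cathepsin of osteoclasts, read 0.88, -0.24, -1.06, -0.24 and -0.37 in Adenoma and 2.94, 2.59, 5.32, 6.03 and 3.03 in Metastases, a change of 4.19 (SE 0.73, adjusted p 3.58e-04). Ctsb had a change of 1.22 on the probe used, which was not called (adjusted p 0.197), and of 2.83 on another probe (adjusted p 0.00074).

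Of 24 matrix metalloproteinase genes and inhibitors, 5 were called higher (Mmp9, Mmp10, Mmp12, Mmp13 and Plaur) and 3 lower (Mmp11, Mmp15 and Timp3). Mmp13, a collagenase, read -0.14, -1.08, -1.17, -1.57 and -0.40 in Adenoma and 5.07, 0.88, 5.87, 5.57 and 1.49 in Metastases. The values did not overlap, replicates 2 and 5 were the lower Metastases, and the change was 4.65 (SE 1.05, adjusted p 0.00267). Mmp12, the macrophage elastase, was not well above background on any Adenoma array and was at least 7.74-fold higher in Metastases on the Cy5 signal alone, without the reference channel. On the log2 ratio it changed by 2.75 (adjusted p 0.0167), and with the macrophage list mean as a covariate by 0.90 (adjusted p 0.403). It lost the call without Metastases replicate 3 (change 2.31, adjusted p 0.0529). The gelatinase gene Mmp2 had a change of -0.75 and Mmp14, which encodes a membrane-bound protease that activates pro-MMP2, a change of 0.41, and neither was called.

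Neutrophil genes did not move together. Of 17, 5 were called higher (Retnlg, Mmp8, Mmp9, Csf3r and Clec4d) and 1 lower (S100a8). Retnlg, a resistin-like protein of neutrophils, read -0.015, -0.062, 0.16, -0.048 and -0.13 in Adenoma, where it was not well above background on any array, and 4.99, 1.03, 0.94, 0.55 and 4.97 in Metastases. Replicates 1 and 5 stood far above the other 3, and the Cy5 signal alone was at least 6.48-fold higher in Metastases, while the change on the log2 ratio was 2.51 (adjusted p 0.0402). Left out singly, every Adenoma replicate (adjusted p 0.0604 to 0.0673) and Metastases replicates 1 (0.123) and 5 (0.113) ended the Retnlg call. S100a9 and S100a8, which encode the subunits of calprotectin, were on opposite sides of 0. S100a9 had a change of 2.04 (adjusted p 0.0925) and was not called, with Metastases replicates 1 and 5 again the highest at 7.98 and 8.04. S100a8 fell on the probe used by 4.36-fold (adjusted p 0.0286), a call lost without Adenoma replicate 2 (0.0645) or 3 (0.0529) or Metastases replicate 4 (0.0916). Clec4d, a lectin receptor shared by neutrophils and monocytes, changed by 4.24 (SE 1.13, adjusted p 0.00851). The neutrophil count ranged from 1 to 5 called higher when single arrays were left out, with 1 without Metastases replicate 1, 2 without Adenoma replicate 4 or 5, and 3 without Adenoma replicate 1, 2 or 3 or Metastases replicate 4 or 5.

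Most lymphocyte markers did not pass the test. Of 20 T and NK cell genes, 1 was called higher and 4 were called lower, a share of 25% against 14.6% of all genes. Of 12 B cell genes 0 were called by limma or by an equal-variance test without moderation, with 3 at an unadjusted p below 0.05. Nkg7, a granule protein of NK and cytotoxic T cells, read 4.13, 3.92, 5.19, 4.94 and 3.97 in Adenoma and 1.34, 0.61, 0.88, 0.55 and 2.15 in Metastases, with no overlap. Its change was -3.32 (SE 0.46, adjusted p 5.65e-05), another probe gave -2.69, and the Carcinoma mean was 0.99. Cd3e, a chain of the T cell receptor complex that defines T cells, had a change of -0.01 (adjusted p 0.972). The other T and NK genes called lower were Ifng, Il2rb and Cd3d, and the count of 4 fell to 1 without Adenoma replicate 3 and to 2 without Adenoma replicate 4 or Metastases replicate 2 or 4.

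Some genes of the lung itself were higher in Metastases. Of 18 lung epithelial genes, 4 were called higher (Sftpc, Sftpa1, Scgb1a1 and Hopx) and 0 lower. The share called was 22.2% against 14.6% of all genes. Sftpc, the surfactant protein that defines alveolar type II cells, read 0.39, 3.38, 4.63, 2.29 and 1.20 in Adenoma and 5.75, 4.87, 5.57, 5.57 and 6.54 in Metastases. The groups did not overlap although Adenoma varied widely, and the change was 3.28 (SE 0.59, adjusted p 4.64e-04). Sftpa1, another surfactant protein, read 0.027, -0.039, 0.058, -0.043 and 0.23 in Adenoma, with none of the 5 well above background on the probe used, and 3.27, 2.11, 3.09, 3.22 and 4.77 in Metastases. Scgb1a1, the secretoglobin of club cells, changed by 1.67 (SE 0.35, adjusted p 0.00145) and was highest on Metastases replicate 5, at 4.62. Ager, a marker of alveolar type I cells, had a change of 0.29 (adjusted p 0.210), and Nkx2-1, the transcription factor of lung epithelium, was not well above background in either group. Disseminated cells had means of 5.38 for Sftpc and 4.32 for Sftpa1, and Carcinoma, from the mammary gland, had 2.15 and 0.43.

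Of 18 endothelial genes, 3 were called higher and 0 lower, a share of 16.7%, near the 14.6% of all genes. Vwf, the clotting factor stored in endothelium and platelets, read 0.16, 0.27, -0.60, -0.92 and -0.34 in Adenoma and 1.97, 1.14, 2.21, 3.93 and 2.29 in Metastases, a change of 2.59 (SE 0.47, adjusted p 5.23e-04). Flt1, a receptor for VEGF, changed by 1.81 (SE 0.38, adjusted p 0.00173), and 4 other probes gave changes of 0.31 to 1.76. Cldn5, the endothelial claudin, changed by 1.26 (adjusted p 0.0227) and lost its call without Adenoma replicate 3 (0.0549) or Metastases replicate 5 (0.0623). The defining adhesion molecules Pecam1 and Cdh5 had changes of -0.041 and 0.79 and were not called.

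Fibroblast genes were lower in Metastases. Of 18, 0 were called higher and 8 lower, with a median change of -1.21. The list mean was -1.87, -1.69, -2.07, -1.35 and -2.63 on the Adenoma arrays and -2.95, -2.31, -3.63, -3.55 and -3.24 on the Metastases arrays. Col1a1, the major chain of type I collagen, read -4.48, -4.0, -4.45, -3.27 and -5.02 in Adenoma and -7.13, -6.60, -7.96, -7.76 and -7.42 in Metastases. All Metastases were below all Adenoma samples, and Col1a1 fell by 8.77-fold (log2 change -3.13, SE 0.53, adjusted p 2.85e-04). The partner chain Col1a2 changed by -2.38 (SE 0.63, adjusted p 0.00807). Postn, periostin, a matrix protein known for supporting metastatic colonies, read 1.92, 1.87, 1.12, 1.29 and 1.01 in Adenoma and -1.74, -0.97, -1.60, -1.87 and -2.71 in Metastases. Postn fell by 9.31-fold (log2 change -3.22, SE 0.44, adjusted p 5.23e-05), and its Carcinoma mean of 1.0 lay near the lowest Adenoma values, so that Metastases were also below Carcinoma (change -2.78, adjusted p 2.91e-04). Pdgfra, a receptor that marks fibroblasts, changed by -1.32 (adjusted p 0.00530) on the probe used and by 0.019 on another. Col3a1 changed by -1.46, which was not called (adjusted p 0.144). The fall in fibroblast genes was called for 2 of the 18 without Metastases replicates 1, 3 and 4, with a median of -0.71.

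Luminal keratins did not pass the test, while the luminal regulators Elf5 and Ehf were called lower with all arrays. Of 22 luminal genes, 1 was called higher and 3 lower, a share of 18.2% against 14.6% of all genes, and the median change was 0.0092. Krt8, the keratin that defines luminal cells, read 3.66, 3.59, 2.47, 2.50 and 3.48 in Adenoma and 4.17, 5.18, 3.65, -1.50 and 4.41 in Metastases. Replicate 4 was far below the rest, the other 4 overlapped or exceeded Adenoma, and the change was 0.04 (SE 1.11, adjusted p 0.984). Krt18 and Epcam, the pan-epithelial adhesion molecule, showed the same low replicate 4, at -3.59 and 0.39, and had changes of -1.20 and 1.42 that were not called. Elf5, the transcription factor of alveolar differentiation in the mammary gland, read 6.27, 7.22, 8.66, 7.26 and 6.4 in Adenoma and 5.31, 5.11, 5.34, 2.06 and 5.39 in Metastases. It was below Adenoma on every Metastases array and changed by -2.52 (SE 0.71, adjusted p 0.0115). Ehf, an epithelial Ets factor, changed by -2.42 (SE 0.51, adjusted p 0.00162) on the probe used, with other probes at -1.05 and 0.78. With the macrophage list mean as a covariate Elf5 changed by -1.26 and was not called (adjusted p 0.246), and Ehf changed by -1.47 (adjusted p 0.0492). Without Metastases replicates 1, 3 and 4 neither was called, with -1.91 (adjusted p 0.157) for Elf5 and -1.96 (adjusted p 0.0871) for Ehf. Areg, amphiregulin, an EGF receptor ligand of the estrogen-responsive epithelium, was the luminal gene called higher, with a change of 1.95 (SE 0.55, adjusted p 0.0115) and overlap between the groups. The third luminal gene called lower was Spint1.

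Milk protein genes were lower. All 14 had negative changes, 5 were called lower (Csn1s2a, Glycam1, Lalba, Csn3 and Cel) and 0 higher, and the median change was -1.75. Csn1s2a, a casein, read 6.72, 9.60, 9.94, 9.25 and 7.73 in Adenoma and 7.63, 1.44, 7.10, 0.61 and 3.36 in Metastases. Replicates 1 and 3 were within the Adenoma range while replicates 2, 4 and 5 were far below it, and the change was -4.62 (SE 1.35, adjusted p 0.0146). Csn2, the beta casein, was split in the same way, at 9.61, 1.82, 9.57, 1.20 and 4.10 in Metastases, and was not called (change -4.01, adjusted p 0.0612). Lalba, the lactose synthase subunit alpha-lactalbumin, was below Adenoma on all 5 arrays and changed by -2.74 (SE 0.63, adjusted p 0.00312). Without Adenoma replicate 3 the number of milk genes called lower was 2, and without Adenoma replicate 2 or 4 or Metastases replicate 4 it was 3.

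Of 14 basal and myoepithelial genes, 3 were called lower and 0 higher, a share of 21.4% against 14.6% of all genes. Those called were contractile genes. Acta2, smooth muscle actin, read -2.32, -1.91, -1.50, -1.14 and -1.45 in Adenoma and -3.98, -4.18, -4.15, -4.17 and -4.10 in Metastases. The Metastases values were within 0.2 log2 units of each other and all were below Adenoma. Acta2 fell by 5.47-fold (log2 change -2.45, SE 0.34, adjusted p 5.72e-05), and 4 other probes gave changes of -2.58, -0.51, -0.14 and 0.015. Cnn1, calponin, changed by -2.38 (SE 0.52, adjusted p 0.00220) and Tagln, transgelin, by -1.53 (SE 0.23, adjusted p 1.02e-04). The basal keratins Krt5 and Krt14 and the basal transcription factor Trp63 had changes of 0.49, -0.34 and 0.19, none of them called.

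Junction and transition genes changed in both directions. Of 21 tight junction genes, 2 were called higher (Tjp1 and Mpp5) and 4 lower (among them Tjp3, Marveld3 and Crb3). Tjp1 (ZO-1), the scaffold that links claudins to actin, read -0.38, -0.64, -1.26, -2.25 and -0.71 in Adenoma and 1.58, 2.25, 1.58, -0.68 and 1.16 in Metastases, a change of 2.23 (SE 0.53, adjusted p 0.00386) with replicate 4 inside the Adenoma range, while another probe gave -0.59. Its relative Tjp3 went the other way on every array, from 2.62, 2.95, 3.19, 3.69 and 3.02 in Adenoma to 0.65, 1.53, 1.03, -0.94 and 1.26 in Metastases. The change of Tjp3 was -2.39 (SE 0.50, adjusted p 0.00159). Crb3, an apical polarity protein, changed by -2.54 (SE 0.69, adjusted p 0.00903), and Cldn3 had a change of 0.27 that was not called. Metastases replicate 4 was the lowest for Crb3 and Cldn3, at 0.091 and 3.92. Without Metastases replicate 5 the tight junction genes called lower numbered 7.

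Of 19 genes of epithelial-mesenchymal transition, 3 were called higher (Zeb1, Zeb2 and Tgfbi) and 7 lower. Grhl2, a keeper of the epithelial state, read 3.12, 3.97, 4.82, 3.37 and 3.76 in Adenoma and 1.71, 2.21, 1.27, -0.078 and 2.40 in Metastases, a change of -2.30 (SE 0.61, adjusted p 0.00784), while other probes gave -0.54 and 0.075. Snai1, a repressor of E-cadherin, also fell, from -0.50, 0.32, 0.37, 0.46 and -0.76 to -1.12, -1.26, -2.47, -2.35 and -1.79, with no overlap (change -1.77, SE 0.45, adjusted p 0.00610). Zeb2, another repressor, read 2.05, -1.67, 2.58, 3.88 and -0.33 in Metastases against -1.92 to -1.36 in Adenoma and was high on replicates 1, 3 and 4, the macrophage-high arrays. Zeb2 was called with all arrays (change 2.96, adjusted p 0.0262) and not without Metastases replicate 1 (0.0587), 3 (0.0678) or 4 (0.0840). Vim, vimentin, showed the same arrays high, at -3.04, -4.58, -1.88, -1.02 and -5.40, and was not called (change 1.64, adjusted p 0.107). The transition genes called higher numbered 0 without Metastases replicate 3 or 4 and 1 without Metastases replicate 1 or Adenoma replicate 2, 3 or 5. Those called lower numbered 4 without Adenoma replicate 2, 3 or 4 or Metastases replicate 4.

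Genes of cell division were lower in Metastases. Of 32 mitosis and G2/M genes, 15 were called lower and 0 higher, with a median change of -1.0. Of 39 replication and G1/S genes, 11 were called lower and 1 higher, with a median of -0.77. Top2a, the topoisomerase that untangles chromosomes, read -1.91, -1.77, -1.03, -1.72 and -1.20 in Adenoma and -3.11, -3.68, -2.92, -4.04 and -3.07 in Metastases. All Metastases were below all Adenoma samples, with replicate 4 the lowest, and Top2a changed by -1.84 (SE 0.32, adjusted p 3.93e-04). Kif20a, a kinesin of cytokinesis, read -1.84, -2.01, -1.80, -1.44 and -1.14 in Adenoma and -3.43, -3.99, -3.49, -4.77 and -2.43 in Metastases, a change of -1.97 (SE 0.32, adjusted p 1.98e-04), and a second probe gave -1.88. Ccnb1, the mitotic cyclin, and Aurka, a spindle kinase, changed by -1.81 (adjusted p 0.0140) and -1.39 (adjusted p 0.00166), both with overlap. Other Ccnb1 probes gave -0.15 and 0.062. Cdk1, the partner of Ccnb1, had a change of -0.13 (adjusted p 0.740), and Mki67, the Ki-67 proliferation antigen, had a change of -0.85, which was under 2-fold on the probe used and -1.37 on another.

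Mcm3, a subunit of the replicative helicase, read -2.35, -2.28, -1.52, -1.87 and -1.66 in Adenoma and -3.27, -4.23, -3.38, -3.26 and -3.02 in Metastases, a change of -1.49 (SE 0.23, adjusted p 1.42e-04), while a second probe gave 0.20. Rfc2, a subunit of the clamp loader, changed by -1.81 (SE 0.27, adjusted p 9.96e-05), with -0.49 on another probe. Chaf1b, a subunit of the histone chaperone CAF-1, changed by -2.21 (SE 0.37, adjusted p 2.25e-04). Pcna, the sliding clamp, was the 1 gene called higher, at -2.37, -2.31, -1.95, -2.18 and -2.43 in Adenoma and 0.13, -0.25, 0.30, 0.87 and -0.99 in Metastases, a change of 2.26 (SE 0.52, adjusted p 0.00323). The median change of the G2/M list was -0.77 between Carcinoma and Adenoma and -0.19 between Metastases and Carcinoma. Both comparisons share arrays with this one, and the first also runs across slides and scan days. Without Metastases replicate 5, 17 replication genes were called lower.

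The promoters of the G2/M list were read for a repressor element of cell cycle genes. The element is the CHR (cell cycle genes homology region), with the letters TTTGAA. It was searched on both strands from 250 bases before to 50 bases after the RefSeq start. It was found in 19 of the 27 members with a promoter sequence (70.4%), in 11 of the 13 called lower among them, and in 18.1% of all 27025 promoters. The list was written as mitosis and G2/M genes, so its share of this element is no result of these samples. The motif was picked after the values of the list were known, and a match describes letters, not binding. The 250 bases before the start of Top2a are shown since the gene fell on every array. They hold the element 2 times, once on each strand, in capitals (chr11:99024190-99024439, minus strand, RefSeq, GRCm38.p6).
Top2a: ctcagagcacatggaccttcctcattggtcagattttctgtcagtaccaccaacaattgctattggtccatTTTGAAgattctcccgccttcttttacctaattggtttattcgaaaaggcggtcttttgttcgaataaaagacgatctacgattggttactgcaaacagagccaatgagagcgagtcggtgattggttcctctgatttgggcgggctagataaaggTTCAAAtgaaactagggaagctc

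Replication-dependent histone genes, which are expressed in S phase and package new DNA, had the largest share of members called lower among the 47 lists. The RNA was amplified before labelling, and whether the amplified signal follows the whole histone mRNA alike in both groups was not tested. Of 63 genes on the list 28 were measured. Of these, 20 were called lower and 0 higher, with a median change of -2.06. The list mean was 0.042, 0.12, 0.68, 1.03 and 0.34 on the Adenoma arrays and -1.32, -1.58, -1.27, -1.96 and -0.59 on the Metastases arrays, with no overlap. H2ac13 read 0.98, 0.93, 2.54, 2.77 and 2.06 in Adenoma and -2.56, -3.80, -3.25, -3.83 and -1.36 in Metastases, and H2ac15 read 0.73, 0.58, 2.22, 2.63 and 1.78 and -2.71, -4.06, -3.53, -4.23 and -1.71. These near-identical H2A genes gave almost the same values and are uncertain as separate genes. H2bc14, an H2B gene, read 0.01, 0.10, 0.50, 1.29 and 0.13 in Adenoma and -2.50, -3.02, -2.43, -3.45 and -1.84 in Metastases and changed by -3.06 (SE 0.40, adjusted p 3.71e-05). It had means of -0.86 in Carcinoma and -1.13 in disseminated cells, between the groups. The median change of the list was -0.31 for Carcinoma minus Adenoma, -1.39 for Metastases minus Carcinoma, -1.33 for disseminated cells minus Adenoma and -0.74 for Metastases minus disseminated cells. Under the alternatives run the median of the histone list stayed between -2.34 and -1.74, and leaving out single arrays left 19 to 20 called lower.

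Histone promoters are rich in CCAAT boxes, which bind the factor NF-Y. CCAAT was searched on both strands of the same windows. It was found in 23 of 24 members with a promoter sequence (95.8%), in 16 of the 17 called lower among them, and in 37.9% of all promoters. The list was written as histone genes, so its share of CCAAT boxes is no result of these samples. Here too the values of the list were known, and a match describes letters, not binding. H2ac13 and H2bc14 are neighbors on chromosome 13 that fell by 4.81 and 3.06 on the log2 scale. The 250 bases before their starts are shown with the boxes in capitals. H2ac13 holds 4 (chr13:21716162-21716411, plus strand) and H2bc14 holds 3 (chr13:21721794-21722043, plus strand), both in RefSeq GRCm38.p6.
H2ac13: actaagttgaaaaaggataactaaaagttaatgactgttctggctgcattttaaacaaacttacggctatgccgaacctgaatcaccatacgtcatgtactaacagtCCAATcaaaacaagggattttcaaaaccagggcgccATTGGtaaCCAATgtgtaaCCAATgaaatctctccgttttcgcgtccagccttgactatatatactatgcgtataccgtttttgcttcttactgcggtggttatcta
H2bc14: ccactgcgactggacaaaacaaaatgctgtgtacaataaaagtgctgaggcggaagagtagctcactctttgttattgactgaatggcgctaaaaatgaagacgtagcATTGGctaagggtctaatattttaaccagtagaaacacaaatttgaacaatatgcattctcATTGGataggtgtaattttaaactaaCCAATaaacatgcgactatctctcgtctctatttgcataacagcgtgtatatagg

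Genes of the cytoplasmic ribosome and of the respiratory chain were also lower, though with members in both directions. Of 82 ribosomal protein genes, 36 were called lower and 5 higher, with a median change of -0.75. The list mean was 0.13, 0.093, -0.02, 0.089 and 0.11 on the Adenoma arrays and -0.79, -0.93, -0.79, -1.22 and -0.14 on the Metastases arrays. Rps25, of the small subunit, read -0.18, -0.10, -0.13, -0.043 and -0.14 in Adenoma and -3.18, -3.52, -3.35, -3.52 and -2.78 in Metastases. Both groups were tight and far apart, and Rps25 fell by 8.89-fold (log2 change -3.15, SE 0.29, adjusted p 1.67e-06) on the probe used, while a second probe gave -0.97. Rpl36, of the large subunit, read 0.39, 0.52, 1.08, 1.69 and 0.57 in Adenoma and -2.34, -2.10, -2.56, -3.12 and -1.53 in Metastases, a change of -3.18 (SE 0.45, adjusted p 6.56e-05) with -2.93 on a second probe. Rpl41 changed by -3.42 (SE 0.44, adjusted p 2.99e-05). Many ribosomal protein genes have processed pseudogenes that a probe may also read. The members called higher were Rpl13a, Rpl5, Rpl9, Rpl3 and Rpl27a. The median change was 0.30 for Carcinoma minus Adenoma and -1.24 for Metastases minus Carcinoma, the latter within the same slides and scan day.

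Of 62 oxidative phosphorylation genes, 27 were called lower and 4 higher, with a median change of -0.88. Ndufa11, a subunit of complex I, read 0.63, 1.22, 1.38, 1.70 and 0.94 in Adenoma and -1.58, -1.67, -1.65, -1.63 and -1.06 in Metastases, without overlap. It changed by -2.69 (SE 0.30, adjusted p 8.36e-06), and a second probe gave -2.67. Uqcr10, a subunit of complex III, changed by -2.78 (SE 0.40, adjusted p 7.44e-05). Ndufv3, of complex I, changed by -3.12 (SE 0.47, adjusted p 1.10e-04) on the probe used, with -0.34 and 0.21 on others. The members called higher included Sdha, Ndufb6 and Cyc1. The median was 0.051 for Carcinoma minus Adenoma and -0.92 for Metastases minus Carcinoma.

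**Figure D3:**
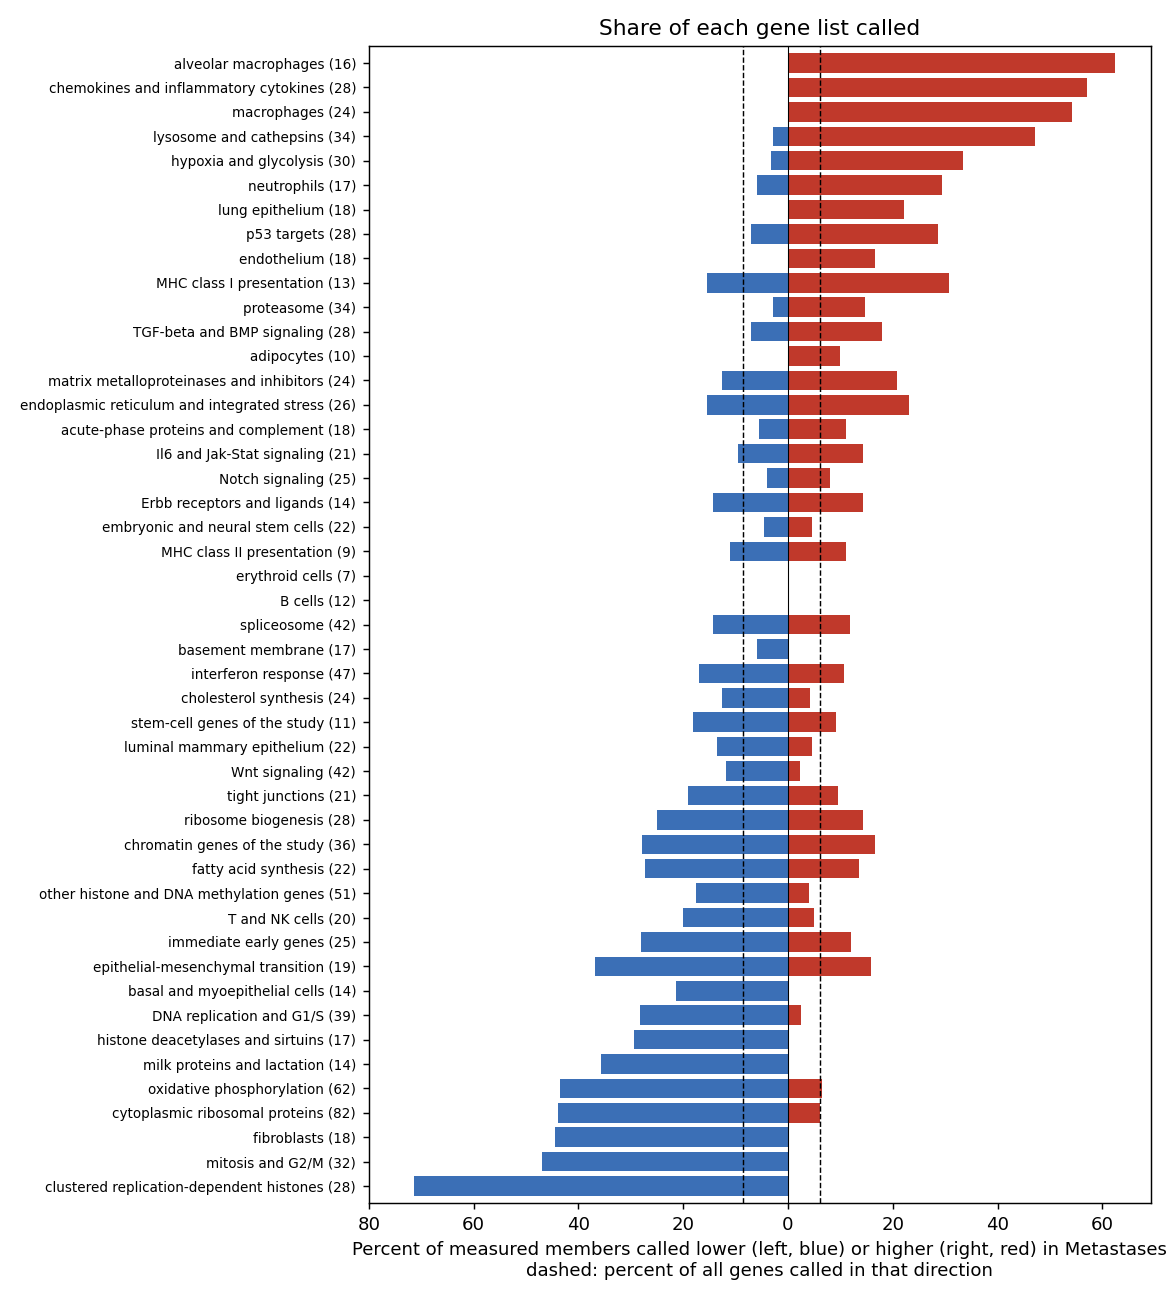
Percent of the measured members of each of 47 gene lists (number of genes in brackets) called lower (blue, left) or higher (red, right) in Metastases than in Adenoma, with dashed lines at the percent of all genes called in each direction, 8.5 lower and 6.08 higher. Alveolar macrophage, chemokine, macrophage and lysosome lists reach farthest to the right, and histones, G2/M, fibroblast, ribosomal and oxidative phosphorylation lists reach far to the left.

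Glycolytic and hypoxia-response genes were higher. Of 30, 10 were called higher and 1 lower (Higd1a), with a median change of 0.78. The list mean was -1.68, -1.45, -1.50, -1.74 and -1.78 on the Adenoma arrays and -0.71, -0.79, -0.61, -0.53 and -0.51 on the Metastases arrays, with no overlap. Pgk1, phosphoglycerate kinase, read -2.92, -2.75, -2.70, -3.02 and -2.83 in Adenoma and 0.12, 0.49, 0.43, 0.76 and 1.30 in Metastases. Every Metastases array was more than 2 log2 units above every Adenoma array, and Pgk1 rose by 3.46 on the log2 scale (SE 0.34, adjusted p 3.16e-06), with a change of 3.75 on a second probe. Gapdh, which encodes the glycolytic dehydrogenase often taken as a reference gene, read -2.46, -2.87, -2.95, -3.03 and -3.03 in Adenoma and -0.10, 0.57, 0.42, 0.82 and -0.49 in Metastases. It changed by 3.11 (SE 0.38, adjusted p 2.03e-05), with 2.25 on a second probe, and had means of -2.09 in Carcinoma and -1.57 in disseminated cells. Slc16a3, the lactate exporter MCT4, read -3.23, -3.15, -1.94, -2.64 and -3.29 in Adenoma and 1.06, -0.92, 0.62, 0.94 and 0.49 in Metastases, a change of 3.29 (SE 0.46, adjusted p 5.53e-05). Ldha, lactate dehydrogenase, changed by 1.42 (SE 0.37, adjusted p 0.00800), with 3.09 on a second probe. The classical hypoxia targets Vegfa, Car9 and Slc2a1 had changes of 0.58, 0.56 and 0.76 on the probes used and were not called, while another Vegfa probe gave 1.91. Without Metastases replicates 1, 3 and 4, 5 of the 30 were called higher and the median was 0.90. Macrophages also express glycolytic genes, and the part of macrophage RNA in these changes was not tested.

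The core of the hypoxia response element, ACGTG, which binds HIF, was searched in the same promoter windows on both strands. It was found in 16 of 29 members with a promoter sequence (55.2%), in 8 of the 10 called higher, and in 19.7% of all promoters. The list was written as hypoxia-response and glycolytic genes, so its share of this element is no result of these samples. The values of the list were known, and a match describes letters, not binding. The 250 bases before the starts of Pgk1, Ldha and Slc16a3, which rose together, are shown with the matches in capitals. A capital stretch of 6 letters (CACGTG) is the element on both strands at once, and the E-box of other factors. Pgk1 lies at chrX:106186850-106187099, Ldha at chr7:46845554-46845803 and Slc16a3 at chr11:120948817-120949066, all on the plus strand (RefSeq, GRCm38.p6).
Pgk1: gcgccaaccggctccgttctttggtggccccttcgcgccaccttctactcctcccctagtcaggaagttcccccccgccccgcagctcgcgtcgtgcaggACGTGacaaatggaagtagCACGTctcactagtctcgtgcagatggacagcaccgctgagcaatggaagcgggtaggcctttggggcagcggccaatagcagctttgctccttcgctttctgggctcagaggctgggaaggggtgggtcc
Ldha: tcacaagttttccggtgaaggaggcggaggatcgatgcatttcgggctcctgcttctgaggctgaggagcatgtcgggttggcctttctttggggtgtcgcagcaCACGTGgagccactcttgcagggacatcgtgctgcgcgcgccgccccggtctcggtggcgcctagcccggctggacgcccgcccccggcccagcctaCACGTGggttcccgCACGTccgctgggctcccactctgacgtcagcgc
Slc16a3: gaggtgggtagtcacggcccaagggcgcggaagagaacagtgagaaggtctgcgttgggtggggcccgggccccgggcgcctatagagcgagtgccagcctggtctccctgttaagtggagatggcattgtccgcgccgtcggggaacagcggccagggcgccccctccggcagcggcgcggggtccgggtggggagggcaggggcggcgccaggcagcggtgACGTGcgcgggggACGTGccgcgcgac

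Targets of p53 rose in part. Of 28, 8 were called higher and 2 lower (Plk2 and Plk3), with a median of 0.34. Cdkn1a, the cell cycle inhibitor p21, read 0.58, 0.72, 0.40, 1.06 and 0.50 in Adenoma and 3.38, 3.76, 3.14, 4.23 and 4.67 in Metastases. All 5 Metastases were at least 2 log2 units above the highest Adenoma value, and Cdkn1a rose by 9.08-fold (log2 change 3.18, SE 0.38, adjusted p 1.84e-05), with means of 2.70 in Carcinoma and 2.05 in disseminated cells. Ccng1, cyclin G1, read -1.16, -1.29, -1.42, -1.46 and -1.13 in Adenoma and 0.50, -0.013, 0.36, -0.37 and 0.32 in Metastases, a change of 1.45 (SE 0.27, adjusted p 5.20e-04). Mdm2, the ubiquitin ligase that degrades p53, changed by 1.19 (SE 0.33, adjusted p 0.0110). Eda2r, a death-domain receptor, changed by 2.38 (SE 0.67, adjusted p 0.0115) with Metastases replicate 4 within the Adenoma range at -1.58. Other Eda2r probes gave 0.68 and 0.040. Bax, a pore-forming member of the Bcl2 family, had a change of 0.49 and was not called. Without Metastases replicates 1, 3 and 4, 9 p53 targets were called higher and 0 lower.

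Stress and early response genes were mixed. Of 26 endoplasmic reticulum and integrated stress genes, 6 were called higher and 4 lower (Calr, Manf, Trib3 and Phgdh). Atf4, the transcription factor of the integrated stress response, read -0.90, -0.45, -1.37, -0.94 and -1.10 in Adenoma and 0.72, 1.23, 0.79, -0.08 and -0.10 in Metastases, without overlap, and changed by 1.46 (SE 0.32, adjusted p 0.00239). Slc7a11, the cystine importer and a target of Atf4, read 3.33, 0.50, 3.65, 4.72 and -0.024 in Metastases and was not well above background on any Adenoma array on the probe used (adjusted p 0.00717), with the macrophage-high replicates 1, 3 and 4 the highest. Calr, the chaperone calreticulin, read 1.68, 1.79, 1.71, 1.11 and 2.26 in Adenoma and -0.40, -0.49, -0.59, -0.78 and -0.81 in Metastases, a change of -2.32 (SE 0.23, adjusted p 2.61e-06), while another probe gave 0.49. Of 25 immediate early genes, 3 were called higher and 7 lower. Myc read 0.95, 0.39, 0.06, -0.17 and 0.84 in Adenoma and -1.60, -1.58, -2.60, -3.13 and -1.89 in Metastases. It fell by 5.96-fold (log2 change -2.58, SE 0.36, adjusted p 5.82e-05), with -2.33 and -0.49 on other probes, and its Carcinoma mean was -1.57. Jund, an AP-1 subunit, changed by -2.49 (SE 0.68, adjusted p 0.00947), while Fos and Jun had changes of -0.23 and -0.47 and were not called. The immediate early genes called higher (Dusp2, Socs3 and Fosl2) numbered 1 without Adenoma replicate 3 or Metastases replicate 1, 3 or 4.

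Interferon-response genes split between rises and falls. Of 47, 5 were called higher (Rsad2, Irf7, Ifih1, Parp14 and Ifngr2) and 8 lower, with a median change of 0.067. Rsad2 (viperin), an antiviral enzyme induced by type I interferon, read 3.03, 2.33, 2.55, 2.19 and 2.72 in Adenoma and 6.66, 4.44, 7.79, 8.07 and 3.78 in Metastases, without overlap. It changed by 3.58 (SE 0.83, adjusted p 0.00323), with 2.11 and 3.53 on other probes. Cxcl9, a chemokine induced by interferon gamma, went the other way, from 5.84, 6.74, 6.71, 6.46 and 5.88 to 5.27, 1.32, 5.07, 3.46 and 2.82, a change of -2.74 (SE 0.66, adjusted p 0.00414). Ubd, a ubiquitin-like modifier also induced by interferon gamma, read 5.49, 5.28, 6.01, 5.73 and 5.07 in Adenoma and 4.56, 0.61, 2.98, 0.55 and 3.0 in Metastases, a change of -3.17 (SE 0.64, adjusted p 0.00110). Gbp4, a GTPase named by the study, changed by -1.89 (SE 0.47, adjusted p 0.00562) with overlap. Irf1 had a change of 0.99 on the probe used, just under 2-fold, and -1.28 on another. Cxcl10 ranged from 1.14 to 7.77 in Metastases against 3.23 to 5.71 in Adenoma, with replicates 3 and 4 above, replicate 1 within and replicates 2 and 5 below the Adenoma range, and it was not called (change 0.054, adjusted p 0.978). The number called higher was 11 without Metastases replicate 2 and 10 without replicate 5, and the number called lower was 4 without Metastases replicate 4 and 5 without Metastases replicate 2 or Adenoma replicate 1 or 5. Against Carcinoma, within the same slides and scan day, the list's median was 1.41 with 24 called higher and 0 lower. Carcinoma minus Adenoma, which runs across slides and scan days, gave -1.36 with 0 higher and 21 lower.

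Antigen presentation genes were also divided. Of 13 MHC class I genes, 4 were called higher (H2-D1, H2-T23, Tap1 and Tapbp) and 2 lower (Psme1 and Psmb10). H2-D1, a class I heavy chain, read 3.89, 2.87, 1.56, 2.0 and 3.27 in Adenoma and 5.12, 4.35, 5.38, 5.22 and 4.45 in Metastases, a change of 2.19 (SE 0.69, adjusted p 0.0223), and Adenoma replicates 3 and 4 were the lowest. The call was lost without Adenoma replicate 3 (0.0642) or 4 (0.0549) or Metastases replicate 3 (0.0504). H2-K1, a near-identical heavy chain whose probes may share signal with it, had a change of 0.66 and was not called, so the pair is uncertain, and another H2-D1 probe gave -0.51. Tap1, a subunit of the peptide transporter, changed by 1.87 (adjusted p 0.0198) and lost its call without Adenoma replicate 3 (0.0546) or 4 (0.0521) or Metastases replicate 3 (0.0537). B2m, the common light chain, had a change of 0.54 and was not called. Of 9 class II genes, 1 was called higher (H2-Ab1) and 1 lower (Ciita), a share of 22.2% against 14.6% of all genes. Ciita, the master regulator of class II genes, read 2.61, 2.60, 1.75, 3.21 and 3.48 in Adenoma and 0.75, -0.34, 1.25, 1.35 and 0.093 in Metastases, a change of -2.11 (SE 0.48, adjusted p 0.00270). H2-Aa and Cd74, its targets, had changes of -0.38 and 0.43 and were not called, and Cd74 was lowest on Metastases replicates 2 and 5, at -0.024 and 1.61. The number of class I genes called higher was 1 without Adenoma replicate 3 and 2 without Adenoma replicate 4 or Metastases replicate 3.

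**Figure D4:**
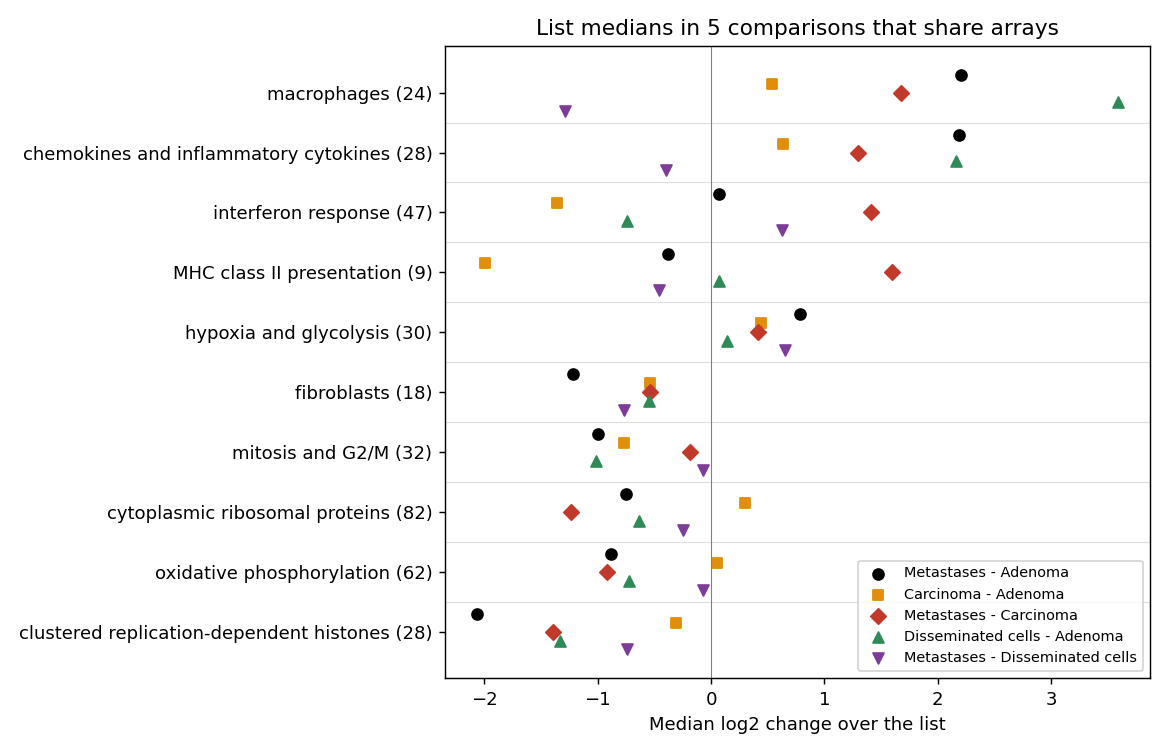
Median log2 change over the members of 10 gene lists in 5 comparisons of the stages, which share arrays and are therefore not independent. The interferon median is 0.067 for Metastases minus Adenoma, -1.36 for Carcinoma minus Adenoma and 1.41 for Metastases minus Carcinoma, while the histone median is below 0 in all 5.

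Chromatin genes that the study discussed for metastasis were examined one by one. The study picked them on these samples, so their directions are not independent evidence. Of 36 measured, 6 were called higher and 10 lower, a share of 44.4% against 14.6% of all genes, and the median change was -0.26. Some names are those of the array files: Mll1, Mll3 and Mll5 are now Kmt2a, Kmt2c and Kmt2e, and Whsc1 and Whsc1l1 are now Nsd2 and Nsd3.

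The chromatin genes called higher were Setd5, Idh1, Aebp2, Ezh2, Idh2 and Prmt1. Ezh2, the H3K27 methyltransferase of Polycomb complex PRC2, read -2.36, -2.33, -2.25, -2.28 and -2.59 in Adenoma and -0.89, -0.74, -1.11, -1.62 and -1.06 in Metastases. The groups did not overlap and Ezh2 rose by 2.42-fold (log2 change 1.28, SE 0.26, adjusted p 0.00144), with means of -2.11 in Carcinoma and -2.38 in disseminated cells. Aebp2, an accessory subunit of the same complex, changed by 1.39 (SE 0.35, adjusted p 0.00575) with Metastases replicate 5 inside the Adenoma range at -1.32, and another probe gave -0.18. Setd5, a SET-domain protein, read -2.08, -1.89, -1.96, -1.90 and -2.20 in Adenoma and 0.28, -0.29, -0.69, -1.06 and 1.48 in Metastases, a change of 1.95 (SE 0.43, adjusted p 0.00212), and its 4 other probes gave -0.093 to 1.43. Idh1 and Idh2, the isocitrate dehydrogenases that supply the cofactor of histone and DNA demethylases, changed by 1.44 (SE 0.40, adjusted p 0.0108) and 1.19 (SE 0.27, adjusted p 0.00289). Prmt1, the main arginine methyltransferase, read -4.66, -3.78, -4.38, -4.05 and -4.44 in Adenoma and -4.48, -3.21, -3.55, -2.49 and -1.96 in Metastases with overlap. Prmt1 was called with all arrays (change 1.12, adjusted p 0.0229) and not without Adenoma replicate 1 (0.0517) or Metastases replicate 4 (0.0674) or 5 (0.0664).

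The chromatin genes called lower included H3K4, H3K9, H3K36 and DNA methyltransferases. Mll3, an H3K4 methyltransferase of enhancers, read -0.38, -0.23, -0.37, 0.012 and -0.41 in Adenoma and -2.42, -2.62, -3.01, -2.54 and -1.91 in Metastases. All Metastases were below all Adenoma samples, and Mll3 fell by 4.67-fold (log2 change -2.22, SE 0.35, adjusted p 1.41e-04), while 5 other probes gave -1.28 to 0.23. The relatives Mll1, Setd1a and Setd1b changed by -1.59, -1.14 and -1.29, with adjusted p of 0.00225, 0.00427 and 0.00283. Setd2, which trimethylates H3K36, read 0.14, 0.32, -0.19, -0.15 and 0.27 in Adenoma and -1.43, -1.43, -2.26, -1.92 and -1.37 in Metastases, a change of -1.76 (SE 0.23, adjusted p 3.92e-05). Ehmt2 (G9a), an H3K9 methyltransferase, read -1.27, -0.99, -0.77, -0.99 and -1.17 in Adenoma and -3.21, -2.52, -3.12, -3.32 and -2.80 in Metastases, a change of -1.96 (SE 0.31, adjusted p 1.75e-04). Dnmt1, the maintenance DNA methyltransferase, changed by -1.51 (SE 0.21, adjusted p 5.75e-05), Smyd2 by -2.0 (adjusted p 0.00147) and the arginine methyltransferase Prmt7 by -1.61 (adjusted p 6.85e-04), with -0.023 on another Prmt7 probe. With the macrophage list mean as a covariate 4 of the study's chromatin genes were called higher and 8 lower, and without Metastases replicates 1, 3 and 4 these were 3 and 5. Mll1 (adjusted p 0.0634 and 0.143), Setd1a (0.103 and 0.237), Idh1 (0.122 and 0.225) and Aebp2 (0.123 and 0.310) lost the call in these alternatives. Setd1b, Smyd2 and Idh2 lost it without the 3 arrays (adjusted p 0.0633, 0.0796 and 0.0549). Setd5, Ezh2, Prmt1, Mll3, Setd2, Prmt7, Dnmt1 and Ehmt2 were called both ways.

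Among chromatin genes not called, Suv39h2, an H3K9 methyltransferase, had a change of 0.76 on the probe used and 1.37 on another, and Smyd3 had -0.47 without overlap between the groups, with 1.01 and 0.37 on other probes. Prmt6 had a change of 0.43, with 1.94 and -0.86 on other probes, and Prmt3 had 0.16, with 0.62 (adjusted p 0.00480) and -0.26 on other probes. Setd3, Nsd1, Whsc1 and Whsc1l1 had changes of -0.30, -0.41, -0.41 and -0.39 on the probes used. Another Nsd1 probe gave 0.56 (adjusted p 0.00212), another Whsc1 probe 0.53, and other probes of Setd3 and Whsc1l1 reached 1.12 and 1.60. For Smyd3, Prmt6, Prmt3, Setd3, Nsd1, Whsc1 and Whsc1l1 the probes differed in direction.

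**Figure D5:**
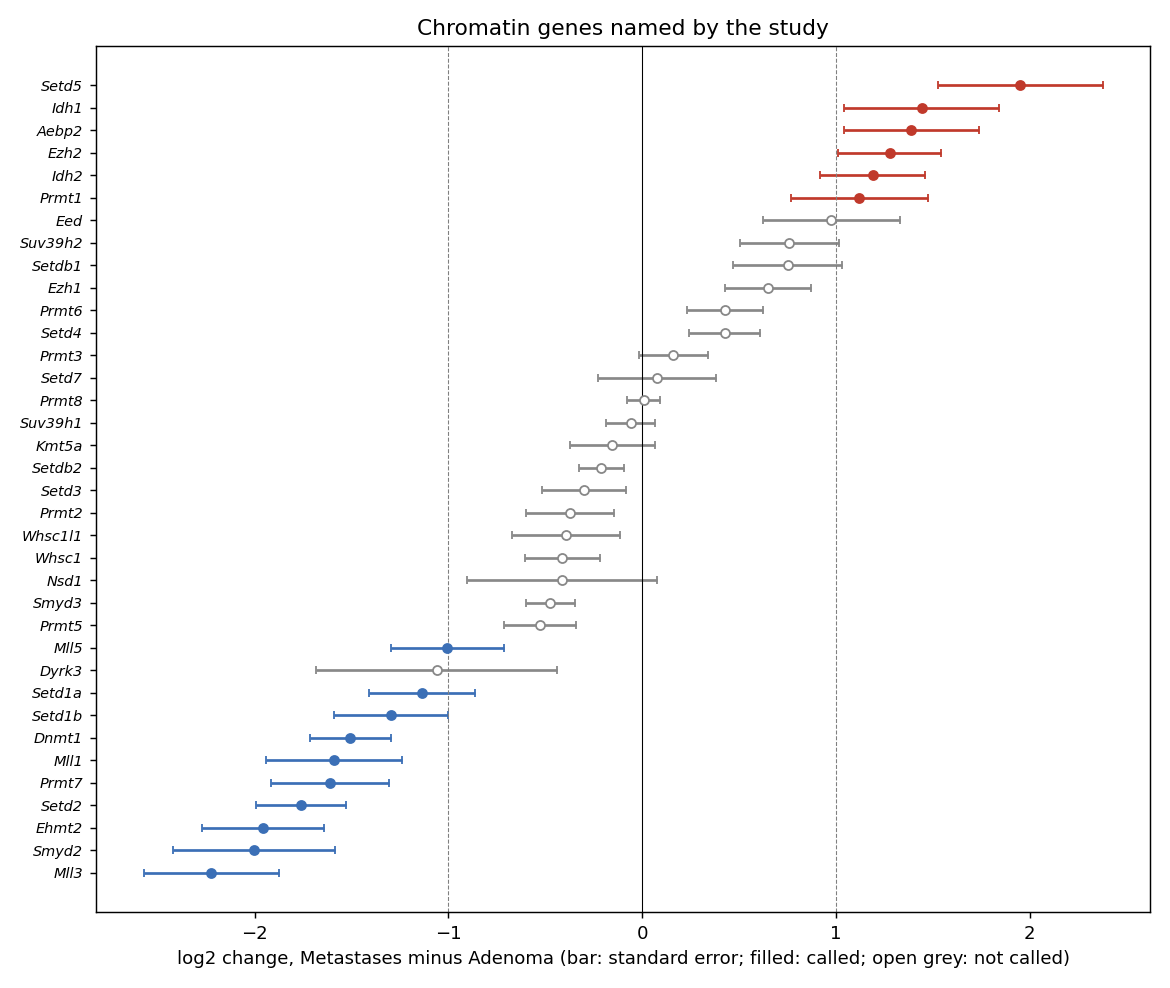
Log2 change, Metastases minus Adenoma, of the 36 chromatin genes discussed by the study, with standard errors from the limma fit. Filled points are called (6 higher in red, 10 lower in blue) and open grey points are not, and dashed lines mark a 2-fold change in either direction.

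Of 51 further histone and DNA methylation genes not chosen by the study, 2 were called higher (Mbd3 and Mbd2) and 9 lower. The share called was 21.6% against 14.6% of all genes. Kdm5c, an H3K4 demethylase, read 0.86, 0.95, 1.68, 1.37 and 1.17 in Adenoma and -0.99, -1.04, -1.18, -0.76 and -0.38 in Metastases, a change of -2.08 (SE 0.23, adjusted p 1.16e-05). Kdm2a, an H3K36 demethylase, changed by -2.02 (SE 0.29, adjusted p 7.35e-05), and Cbx1, the heterochromatin protein HP1 beta, by -2.12 (SE 0.33, adjusted p 1.39e-04) with 0.28 on another probe. Of 17 histone deacetylases and sirtuins, 5 were called lower and 0 higher. Hdac6, a deacetylase of tubulin, changed by -1.48 (SE 0.23, adjusted p 1.36e-04), Hdac10 by -1.77 (SE 0.33, adjusted p 5.82e-04) and the mitochondrial Sirt5 by -1.65 (SE 0.34, adjusted p 0.00146), and the other members called lower were Sirt3 and Hdac4. Hdac1 had a change of -0.41 and was not called.

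The study's text names the stem-cell genes Fzd3, Xiap and Sox2 and several Smad members. It does not say which Smad genes, so the list here took the measured family. The study likewise chose its genes on these samples, so they give no independent evidence of direction. Of the 11 on this list, 1 was called higher and 2 lower, all of them Smad genes. The share called was 27.3% against 14.6% of all genes. Smad2, a mediator of TGF-beta and activin signals, read 0.32, 0.43, 0.037, -0.20 and 0.54 in Adenoma and 1.53, 1.65, 1.45, 1.15 and 1.54 in Metastases, without overlap, a change of 1.24 (SE 0.20, adjusted p 1.88e-04). Smad1, a mediator of BMP signals, fell on the probe used, from -0.95, -0.80, 0.33, -1.05 and -0.74 to -3.44, -3.54, -3.62, -3.09 and -2.84, a change of -2.67 (SE 0.32, adjusted p 1.5e-05). Its other probe changed by 1.54 in the opposite direction (adjusted p 0.0212), so that no direction can be given for Smad1. Smad6, an inhibitor of BMP signals, changed by -1.39 (SE 0.27, adjusted p 8.92e-04). Sox2, a pluripotency factor, was not well above background on any Adenoma array and was so on 1 Metastases array, replicate 1 at 0.89, and was not called. Fzd3, a Wnt receptor, and Xiap, an inhibitor of caspases, had changes of -0.24 and 0.53 and were not called. Of 22 other embryonic and neural stem-cell genes, 1 was called higher (Fabp7) and 1 lower (Msi2), a share of 9.09%, below that of all genes. Leaving out Metastases replicate 5 gave 3 lower.

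Signaling lists held genes called in both directions, and the Notch and Wnt shares were no larger than that of all genes. Of 25 Notch genes, 2 were called higher and 1 lower, a share of 12% against 14.6% of all genes. Notch1 read 2.35, 2.79, 2.50, 2.14 and 2.38 in Adenoma and 0.56, 0.96, 0.60, 1.17 and 0.98 in Metastases. All Metastases were below all Adenoma samples, and Notch1 fell by 2.99-fold (log2 change -1.58, SE 0.23, adjusted p 6.64e-05), with -0.81 on a second probe. Notch2 went the other way, from -1.10, -0.77, -1.19, -0.97 and -1.05 to 1.24, 1.33, 1.18, 2.53 and 0.98, a change of 2.47 (SE 0.33, adjusted p 4.5e-05), though 2 other probes gave -0.081 and 0.020. The ligand Dll1 had a change of -0.25 and was not called, with Metastases replicates 1 and 2 above Adenoma at 3.59 and 3.53 and the other 3 below it. The other Notch gene called was the ligand Dll3.

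Of 42 Wnt genes, 1 was called higher (Ctnnb1) and 5 lower (Wnt4, Wnt5b, Lrp5, Tcf7l1 and Sfrp2), a share of 14.3% against 14.6% of all genes. Ctnnb1, which encodes beta-catenin, the transducer of the pathway and a partner of cadherins, read -0.50, -0.83, -1.29, -1.17 and -0.84 in Adenoma and 2.34, 2.68, 2.15, 2.55 and 1.19 in Metastases. The lowest Metastases value was above the highest Adenoma value by more than 1 log2 unit, and Ctnnb1 rose by 8.62-fold (log2 change 3.11, SE 0.54, adjusted p 3.58e-04), with 2.13 and 0.34 on other probes. Tcf7l1, a repressor of Wnt targets, changed by -2.46 (SE 0.51, adjusted p 0.00150), with -2.87 on a second probe. The ligand Wnt5b changed by -2.30 (SE 0.64, adjusted p 0.0109) with overlap, and -0.30 on a second probe. The Wnt genes called higher numbered 3 without Adenoma replicate 1. Of 28 TGF-beta and BMP genes, 5 were called higher (among them Tgfbr1, Bmpr2, Id3 and Inhba) and 2 lower (Fst and Bambi), a share of 25%. Inhba, the activin A subunit, read -1.93, -1.65, -1.63, -1.65 and -1.99 in Adenoma and 1.30, 0.85, 3.14, 6.74 and 0.68 in Metastases, with replicate 4 far above the rest, a change of 4.31 (SE 0.90, adjusted p 0.00152). Without Metastases replicate 1 or 2, 3 TGF-beta genes were called higher.

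Of 14 Erbb receptors and ligands, 2 were called higher (Areg and Nrg1) and 2 lower, a share of 28.6% against 14.6% of all genes. Egfr, the receptor for Areg, read -0.16, 0.10, 0.71, 0.46 and -0.24 in Adenoma and -1.16, -0.16, -2.14, -3.66 and -1.96 in Metastases, with Metastases replicate 2 reaching the lower Adenoma values. It changed by -1.99 (SE 0.54, adjusted p 0.00898), and 5 other probes gave -0.68 to -0.012. Erbb2 changed by -1.31 (adjusted p 0.0170) and lost the call without Metastases replicate 4 (change -1.04, adjusted p 0.0562). Another Erbb2 probe gave -0.056. Erbb3 had a change of -0.35 and was not called. Of 21 Il6 and Jak-Stat genes, 3 were called higher (Il6, Socs3 and Prdm1) and 2 lower (Socs2 and Jak1), a share of 23.8%. Prdm1 (Blimp1), a transcriptional repressor named by the study with Il6, read -0.59, -0.68, -1.16, -1.17 and -1.36 in Adenoma and 1.21, -0.70, 1.55, 2.73 and 0.66 in Metastases. Replicate 2 lay within the Adenoma range and the other 4 above it, with a change of 2.08 (SE 0.62, adjusted p 0.0160), a call lost without Metastases replicate 4 (change 1.67, adjusted p 0.0529). Socs3, the feedback inhibitor of Il6 signaling, read 0.12, 0.19, 0.27, 0.0031 and -0.15 in Adenoma and 2.35, 0.93, 3.07, 4.31 and 0.84 in Metastases, a change of 2.22 (SE 0.62, adjusted p 0.0108), highest on the macrophage-high replicates. The receptor Il6ra had a change of 0.031 (adjusted p 0.881) and Stat3 a change of -0.58 (adjusted p 0.134), neither called. The number of Jak-Stat genes called lower was 0 without Metastases replicate 3.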

How the data were processed

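RNA of GFP-positive sorted cells went through a pair of linear amplification rounds, was labelled with Cy5 and hybridised with a Cy3-labelled Universal mouse reference (Stratagene), with no dye swap, and the arrays were read by Agilent Feature Extraction 10.7. The intensity columns used here, mean and median background signals of 45018 spots per array, were deposited by the authors as scanner output without normalization, and their depth has no counting measure, so that only the number of arrays limits the precision. The log2 ratios that the authors deposited as a value table, background-corrected and normalized with limma, served as an alternative. They correlated with the ratios computed here at 0.969 to 0.998 on the 22 arrays, their direction is Cy5 over Cy3, and how they were centred is not given in the sources used here.

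Here the intensities were corrected by normexp (offset 50), normalized by loess within and by quantiles between arrays over the 22 progression arrays, and averaged over spots of a probe. Control spots were then left out, leaving 43379. Probes were named through the accession in RefSeq (23075) or else by the array files (18099), and of several probes for a gene the brightest on average was used. Each of 28784 gene names (18445 with a current symbol) was tested in limma 3.58.1 (R 4.3.3, data.table version 1.17.8, statmod 1.5.0) with 1 coefficient per stage and Benjamini-Hochberg adjustment. The normexp fit was pulled by spots with outlying local background on 4 arrays, where the fitted Cy5 background mean was -1530 (Adenoma replicate 2), -604 (Adenoma replicate 3), -265 (Metastases replicate 4) and -542 (Carcinoma replicate 6), against -50.9 to -12.8 elsewhere. On simulated data of the same size, 77.5% of 200 genes changed by 1.5 on the log2 scale and 88.5% of 200 changed by 2 were called, with 2 and 1 false calls. Only those genes were changed, against 8237 with an adjusted p below 0.05 by limma in the samples. The simulated rates therefore need not hold for the samples, where slide and scan day run with the groups.

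The samples, gene lists and tests were chosen with earlier results of these data known. Genes named in the text were the 8 largest rises and 8 largest falls among called genes with a current symbol, no overlap between the groups and signal well above background and unsaturated on all 10 arrays, then the first 4 members of each of 47 lists with the 3 called members of largest change, and genes the study names. The Smad genes were taken as a family, since the study's text does not say which members it means. Other members are named only where a count of 5 or fewer needed them, after their values were seen. A fold given as "at least" sets the Metastases mean against the lowest signal well above background where no probe of a gene was well above background in Adenoma. These bounds are on the Cy5 signal after loess and Aquantile normalization, leave out the reference channel, are open to dye bias without a swap and are not on the scale of the log2 ratio changes. The 16 chemotherapy samples were not used here, and a few list members are counted but not reported here by name. Alternatives changed the background correction, normalization, arrays, probe, test, threshold, block and covariate, and left out each array in turn.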

Additional observations from a re-analysis of the deposited data

Results flagged for a closer look

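In each group of 5 arrays the highest or lowest log2 ratio of a gene or list was set against the others. A value was listed where its gap to the nearest array exceeded 0.71 of the group's range (Dixon's critical value for 5 samples). Of 452 groups tested 33 were listed, and chance alone gives about 1 in 20. No explanation was weighed for any of them.

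Metastases replicate 4 gave 13 of these values. It was the lowest Metastases array for the epithelial genes Krt8 at -1.50, Krt18 at -3.59, Krt14 at 1.52, Elf5 at 2.06, Cldn3 at 3.92 and Crb3 at 0.091, and also for Fos at 1.32, Suv39h2 at -0.64 and Sirt5 at -1.91. It was the highest for Notch2 at 2.53 and for Nkx2-1 at 0.17, a probe not well above background. Its mean over the tight junction list was 0.40 and over the fatty acid synthesis list -0.92, the lowest in both cases.

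Metastases replicate 5 was the highest for Scgb1a1 at 4.62, Ndufa11 at -1.06, Hdac1 at 1.01, Smoc2 at -1.50, Pigt at -3.05 and the mean of the T and NK cell list at 1.40. Metastases replicate 2 was the lowest for Slc16a3 at -0.92 and for the mean of the B cell list at -1.10. Replicate 1 was the highest for Sox2 at 0.89, and replicate 3 the lowest for the mean of the Notch list at 0.014.

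In Adenoma, replicate 3 was the lowest for Csf1r at -1.20, Dll1 at 1.80 and the mean of the ribosomal protein list at -0.02, and the highest for Smad1 at 0.33. Replicate 5 was the highest for Siglecf at 0.38 and Xiap at 0.17. Replicate 4 was the highest for Pecam1 at 1.63, and replicate 1 for Gapdh at -2.46. Replicate 2 was the highest for the means of the luminal list at 2.52 and the endoplasmic reticulum stress list at -0.54.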

How the results depend on the processing

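Slide, scan day and stage coincide, the Adenoma arrays had lower signal than the Metastases arrays, and 5 arrays per group limit the precision. With all arrays 4195 genes were called, 1749 higher and 2446 lower in Metastases. Leaving out 1 array gave 3700 to 4592 called, 1448 to 1912 higher and 2121 to 2680 lower. With the macrophage list mean as a covariate 2503 were called (1089 higher, 1414 lower). Among the genes named with values, Cxcl10 and Cd74, not called in the main fit, were then called lower. Their changes were -2.98 (adjusted p 0.00122) and -1.81 (adjusted p 0.0406). Others changed sign without a call in either fit, among them Vim, from 1.64 to -0.43, and Krt18, from -1.20 to 0.45. Without Metastases replicates 1, 3 and 4, an alternative chosen after seeing the data, 2120 were called (859 higher, 1261 lower), of which 1858 were also called with all arrays and 0 had the opposite sign. That fit kept only Metastases replicates 2 and 5, so calls can be lost from having fewer arrays. The scanner software's processed signals gave 6191 called, 2889 of them higher, and an adjusted p below 0.01 left 3119, 1150 of them higher. The cause of these shifts was not tested. Leaving spots with outlying local background out of the normexp fit, also chosen after seeing the data, gave 4560 called, 4048 of them shared. The remaining settings gave 3138 (mean of all probes) to 4878 (offset 0), with 0 shared genes of opposite sign in any setting. Quantile normalization of average intensities alone equals no normalization between arrays here, with 4025 called. The replicate block gave 3779 called. Deviations of arrays with the same replicate number correlated at -0.0235, 0.218, 0.00454, 0.0764 and -0.046, and 1 of 5 Adenoma arrays correlated best with its own number, so the numbers do not pair the samples. Of the 177 genes named with values, 127 were called. Of these 127, 54 were called under all 28 settings, 13 lost the call when 1 array was left out, and 0 changed sign.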

Other observations

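Lists of lipid and protein metabolism held genes called in both directions. The share called was 17.6% for proteasome and 16.7% for cholesterol synthesis, near the 14.6% of all genes. It was 40.9% for fatty acid synthesis, 39.3% for ribosome biogenesis and 26.2% for spliceosome. Of 34 proteasome genes 5 were called higher in Metastases (Psma6, Psmb7, Psmc3, Psmc5 and Psmd8) and 1 lower (Psmb1), with a median log2 change of 0.40 against 0.015 over all genes. Of 24 cholesterol synthesis genes 1 was called higher (Fdft1) and 3 lower (Lss, Dhcr7 and Hsd17b7), with a median of -0.18. Of 22 fatty acid synthesis genes 3 were called higher (Acly, Dgat2 and Acsl4) and 6 lower, with a median of -0.049, and leaving out Adenoma replicate 4 or Metastases replicate 1 left 1 higher. Of 28 ribosome biogenesis genes 4 were called higher (Ncl, Nop14, Ddx21 and Gar1) and 7 lower, with a median of -0.32. Of 42 spliceosome genes 5 were called higher (Srsf2, Srsf5, Snrpb, Snrpe and Snrnp70) and 6 lower, with a median of -0.24, and 3 were called higher without Metastases replicate 1, 2 or 3.

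Of 18 acute-phase and complement genes 2 were called higher (among them Hp) and 1 lower (C2), and the count called higher was 0 without Metastases replicate 3. Of 17 basement membrane genes 1 was called lower (Lama4), and 2 were called higher without Metastases replicate 4. Of 10 adipocyte genes 1 was called higher (Retn). The acute-phase, basement membrane and adipocyte shares called were 16.7%, 5.88% and 10%, against 14.6% of all genes. Of 7 erythroid genes 0 were called by limma or by the equal-variance test, with 1 at an unadjusted p below 0.05.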
